A study of Mus musculus with 8 samples.

Results

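The DEAD box (Ddx) and DEAH box (Dhx) RNA helicases were followed in polysomal mRNA of mouse eggs and one-cell embryos. Every probe set was taken whose only gene symbol in GEO's platform annotation begins with Ddx or Dhx and a digit, leaving out Ddx6. This gave 109 probe sets of 50 genes among the 45101 probe sets of the array, 79 for 34 Ddx genes and 30 for 16 Dhx genes. Of the 8 arrays, 4 were hybridized with RNA of one-cell embryos that had received α-amanitin, which blocks RNA polymerase II, and 4 with RNA of oocytes at metaphase II (MII), for which the labels name no treatment. Each batch was a pool of 160 to 500 eggs or embryos, described in the series' design text as an independent replicate, and the labels name no strain or age. Messenger RNA bound to polysomes, the ribosome clusters engaged in translation, was extracted and amplified in 2 rounds before hybridization. Embryo stage and α-amanitin treatment cannot be told apart. Signals are relative to each array's total, so the abundance of an mRNA and its loading onto ribosomes cannot be told apart either, nor can a loss of mRNA per egg from a shift in the total.

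RNA helicases of both families use ATP to unwind short RNA duplexes or to strip proteins from RNA, and they are named after the letters of a conserved motif, Asp-Glu-Ala-Asp or Asp-Glu-Ala-His. DEAD box proteins act mostly on ribosome assembly, mRNA export and translation initiation, while many DEAH box proteins drive the rearrangements of the spliceosome. In germ cells the family includes Ddx4, the mouse Vasa protein, a mark of the germ line. Eggs store most of their mRNA untranslated, and the set of mRNAs on ribosomes changes at fertilization.

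Of the 50 genes, 47 had a probe set above the array median on at least 4 of the 8 arrays and were tested, each through its brightest such probe set. Of these, 18 were higher and 8 lower in one-cell embryos, and 21 did not pass (limma, Benjamini-Hochberg adjusted p under 0.05 over all 23336 probe sets kept). That is 38.3% higher and 17.0% lower, where 20.1% and 14.7% of all 12359 genes tested were called (34.8% in either direction). The groups did not overlap in 21 genes that were higher and 8 that were lower, beside 19.9% and 15.3% of all genes (35.2% either way). Counted as probe sets, 23 of the 79 kept were higher and 14 lower, where 32.1% of all probe sets kept were called (19.3% higher and 12.8% lower), and the groups did not overlap in 25 that were higher and 15 that were lower, where this held for 32.6% of all probe sets (19.3% higher and 13.3% lower). Ddx27, Ddx43 and Dhx37 had no probe set kept. Ddx49, Ddx60 and Dhx38 lay at or under the median of all 4 MII arrays and entered only through the one-cell arrays, so their oocyte level is poorly set and a difference was built into their selection. With every probe set tested and no filter, 17 of all 50 genes were higher and 7 lower, where 12.9% and 8.7% of 18193 genes were called (21.6% either way).

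**Figure D1:**
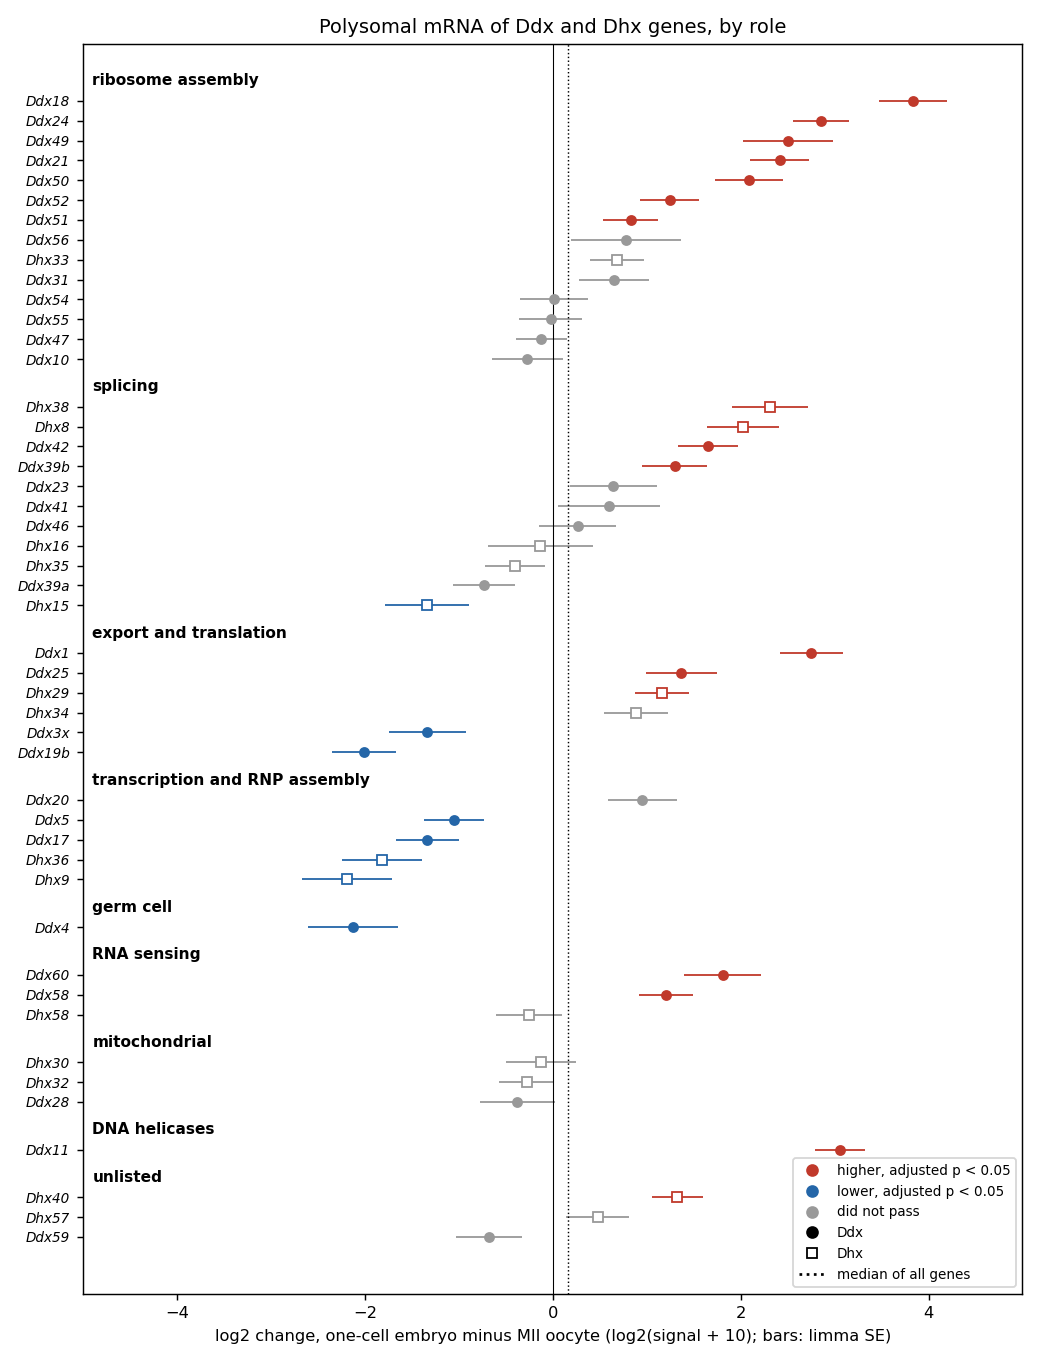
Log2 change on the log2(signal + 10) scale (embryo minus oocyte) of the brightest kept probe set of 47 Ddx (filled circles) and Dhx (open squares) genes, with the limma SE, grouped by role. Red genes were higher and blue genes lower at an adjusted p under 0.05, and grey ones did not pass. The ribosome assembly list held 7 red genes and no blue one, while 4 of the 5 genes for transcription and RNP assembly were blue. Ddx25 is drawn under export and translation and also belongs to the germ cell list.

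One embryo array stood apart in quality, and MII array 2 stood apart in the 3′ to 5′ ratio of Actb. The 75th percentiles of the columns did not overlap, at 108.8 to 171.7 on one-cell arrays and 81.5 to 96.8 on MII arrays. For this measure the two-sided exact permutation test gave p = 0.0286, and 0.129 adjusted over 9 array measures. The column medians ran from 27.8 to 71.8 on the one-cell arrays and from 26.9 to 33.8 on the MII arrays, with one-cell array 1 at the top. Its 18 hybridization controls, added to every sample, averaged 14879 (geometric mean). This average was 857 to 3718 for the other embryo arrays and 905 to 1364 for the oocyte arrays (two-sided exact permutation test between the groups, p = 0.143, and 0.321 adjusted over 9 array measures). The 3′ probe set of 18S ribosomal RNA gave 10688 to 66754 on one-cell arrays and 1583 to 2971 on MII arrays (exact p = 0.0286, the smallest that 4 against 4 can give, and 0.129 adjusted). The 5′ probe set of this RNA gave 9094 to 20095 and 6037 to 11707, with groups that overlapped (exact p = 0.0857, and 0.257 adjusted). The ratio of the 3′ to the 5′ probe set of Actb was 65.9 on MII array 2. It was 4.49 to 11.6 on the other MII arrays and 7.37 to 11.6 on one-cell arrays. All 9 oocyte markers were kept, and their summed signal was 42103 to 69344 on one-cell arrays and 47773 to 71041 on MII arrays. The 10 cumulus and granulosa markers on the array, 6 of them kept, summed to 351 to 1379 on one-cell arrays and 401 to 518 on MII arrays, with the highest sum on one-cell array 1. The 7 sperm markers, 3 of them kept, summed to 175 to 466 on one-cell arrays and 156 to 247 on MII arrays, and no marker of these lists was at 0. Single markers still lay apart between the groups, in both directions. Prm2 of the sperm list gave 80.3 to 245.9 on one-cell arrays and 15.7 to 46.1 on MII arrays. In the same order Akap4 gave 6.1 to 25.9 and 61.8 to 106.9. For the oocyte marker Gdf9 these ranges were 2453 to 8167 and 19202 to 27964, and for Bmp15 2926 to 4070 and 1150 to 2478. Among the 47 helicase genes, one-cell array 1 gave the lowest of the 4 embryo values for 7 of the 8 genes that fell and 5 of the 18 that rose, and the highest for 1 of the 8 and 9 of the 18. Without that array 42 of the 47 changes kept their sign. The 5 that turned, called neither with it nor without it, were Ddx28, Ddx46, Ddx55, Dhx16 and Dhx30. Ddx46 was 0.27 ± 0.41 with all arrays and -0.18 ± 0.31 (adjusted p = 0.712) without array 1. Dhx16 was -0.14 ± 0.56 with all arrays and 0.63 ± 0.30 (adjusted p = 0.126) without it, and Ddx55 was -0.02 ± 0.34 and 0.14 ± 0.32 (adjusted p = 0.793) in the same order.

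The 2 families differed in their medians, but the difference depended on the setting. Among Ddx genes, 14 of 32 were higher and 5 lower, with a median log2 change of 0.72 and quartiles of -0.30 and 1.69. Among Dhx genes, 4 of 15 were higher and 3 lower, with a median of -0.13 and quartiles of -0.34 and 1.03. That is 43.8% higher and 15.6% lower for Ddx genes and 26.7% and 20% for Dhx genes, beside 20.1% and 14.7% of all genes tested. The median of all genes tested was 0.16, and relative to it the Ddx median was 0.56 and the Dhx median -0.29. Without one-cell array 1 the relative medians were 0.61 for Ddx and 0.53 for Dhx genes, with 15 Ddx genes higher and 5 lower and 6 Dhx genes higher and 2 lower, beside 21.5% higher and 15.9% lower over all genes (37.3% either way). With all arrays in, the gap was also smaller or turned in other settings. The relative medians were 0.55 (Ddx) and 0.50 (Dhx) with array quality weights, 0.73 and 0.53 with the hybridization controls as a covariate, 0.47 and 0.21 after quantile normalization, 0.50 and 0.085 with a gene's probe sets averaged, and 0.038 and 0.20 with a filter at the 75th percentile, where the Dhx median was the higher one. Ddx genes spanned -2.13 to 3.84 and Dhx genes -2.19 to 2.31. No test of the difference between the families was made, and the spans overlap over most of their length.

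**Figure D2:**
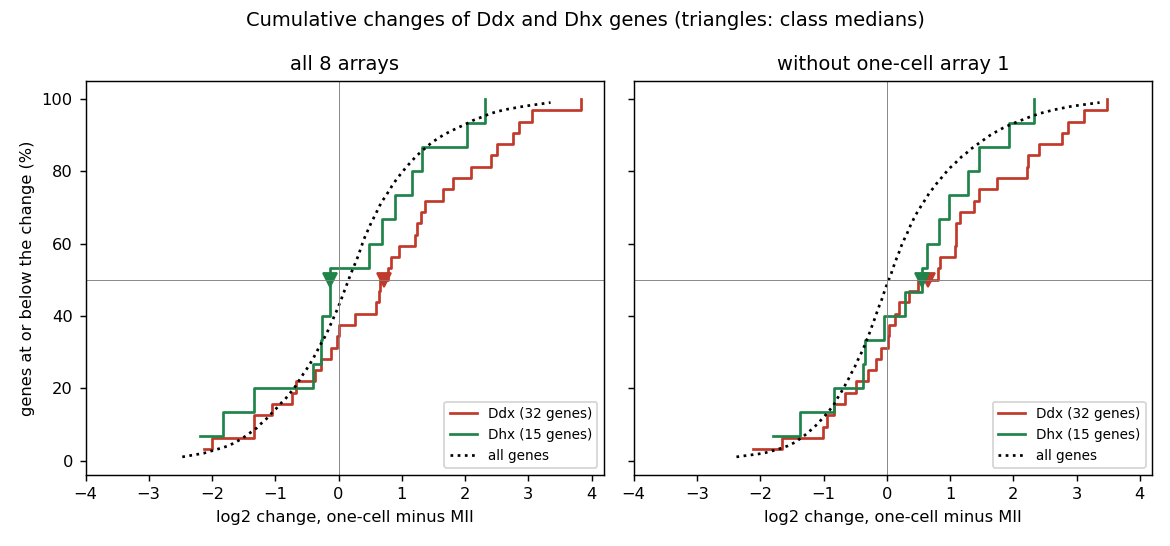
Cumulative share of genes (percent) at or below each log2 change, one-cell embryo minus MII oocyte, for 32 Ddx genes (red), 15 Dhx genes (green) and all genes tested (dotted), with triangles at the family medians. With all 8 arrays the Ddx median lay to the right of the Dhx median (0.72 and -0.13), and without one-cell array 1 the triangles nearly met (0.61 and 0.53 relative to all genes).

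Helicases of ribosome assembly rose or did not pass, and none of them fell. Of the 16 genes in the list, 14 were tested, 7 were higher and 0 lower, where 20.1% of all genes were higher and 14.7% lower, and the median change was 0.81, where all genes had 0.16. Without the filter 6 of 16 were higher and 0 lower, beside 12.9% and 8.7% of all genes. Ddx18, a nucleolar helicase whose yeast counterpart works on the large ribosomal subunit, had signals of 2860.0, 859.6, 997.8 and 1493.9 on one-cell arrays 1 to 4, against 69.3, 69.1, 88.9 and 137 on MII arrays 1 to 4. Every embryo array was far brighter than any oocyte array. The log2 change of Ddx18 was 3.84 ± 0.36 (SE, limma adjusted p = 1.29e-06), a 14.3-fold difference on the offset scale, and its other kept probe set gave 3.23 ± 0.31. Without one-cell array 1, the brightest for this gene, it was 3.49 ± 0.30 (adjusted p = 8.14e-07).

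Ddx24, another nucleolar helicase of large-subunit assembly, had signals of 496.5, 423.3, 819.1 and 380.8 on one-cell arrays 1 to 4, against 58.4, 72.3, 53.3 and 62.7 on MII arrays 1 to 4. The oocyte values lay within a narrow band and every embryo value was far above it, for a change of 2.86 ± 0.30 (SE, limma adjusted p = 3.48e-06). Ddx21, which acts in transcription and processing of ribosomal RNA, had signals of 429.1, 244.7, 280.2 and 221 on one-cell arrays 1 to 4, against 49.3, 33.2, 51.9 and 48.6 on MII arrays 1 to 4, and changed by 2.41 ± 0.31 (SE, limma adjusted p = 2.12e-05). Its closest relative Ddx50 gave 234.1, 277.8, 580.6 and 274.6 on one-cell arrays 1 to 4, against 73.6, 36.5, 69.3 and 107.2 on MII arrays 1 to 4, with a change of 2.09 ± 0.36 (SE, limma adjusted p = 0.000299). Embryo and oocyte arrays were apart in both relatives, although array 1 was the brightest embryo array for Ddx21 and the dimmest for Ddx50. A second probe set of Ddx21 and the other 2 of Ddx50 were too dim to be kept.

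The remaining calls in this list were Ddx49 (2.51 ± 0.48), Ddx52 (1.24 ± 0.32) and Ddx51 (0.83 ± 0.29), known from yeast as ribosome assembly factors and named here after their values were seen. Both probe sets of Ddx52 were called. Ddx51 had the smallest of the 7 changes (adjusted p = 0.0379). It passed without one-cell array 1 or 4 but lost its call without any 1 of the other 6 arrays, where it lay between 0.69 and 0.88 with adjusted p from 0.0609 to 0.105. It was also no longer called after quantile normalization, at 0.34 ± 0.28 (adjusted p = 0.399), or with each array centred on its median, at 0.51 ± 0.35 (adjusted p = 0.312). Ddx52 was no longer called after quantile normalization either, at 0.77 ± 0.29 (adjusted p = 0.0607). The other members tested, Ddx10, Ddx31, Ddx47, Ddx54, Ddx55, Ddx56 and Dhx33, lay between -0.27 and 0.78 and did not pass. Ddx31 and Dhx33 had groups that did not overlap. Ddx47, whose yeast counterpart works on the small subunit, gave 184.7, 259.3, 162.1 and 196.9 on one-cell arrays 1 to 4, against 214.6, 216.6, 213.5 and 220.2 on MII arrays 1 to 4. Its 4 oocyte values were nearly equal and lay inside the range of the embryo values.

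Among splicing helicases, 4 of 11 genes, all tested, were higher and 1 lower, with a median of 0.60, beside 20.1% higher and 14.7% lower over all genes. Those that rose act at different steps. The DEAH box protein Dhx38, the counterpart of yeast Prp16 in the second step of splicing, gave 101.1, 70.1, 189.3 and 93.3 on one-cell arrays 1 to 4, against 12.2, 13.5, 12.2 and 16 on MII arrays 1 to 4. All 4 oocyte values lay under their array's median, so the change of 2.31 ± 0.40 (SE, limma adjusted p = 0.000342) compares embryos with a level near the floor. This probe set is also marked as unspecific by an s in its name, and the other probe set of Dhx38 was too dim to be kept. Dhx8, the counterpart of yeast Prp22 that releases the spliced mRNA, had signals of 211.4, 127.4, 169.6 and 193.1 on one-cell arrays 1 to 4, against 14.5, 26, 57.6 and 58.1 on MII arrays 1 to 4. Its change was 2.02 ± 0.38 (SE, limma adjusted p = 0.000658), and here too the oocyte arrays were dim, with 2 of them under 30. Ddx42, a partner of the SF3B complex, rose by 1.65 ± 0.32 (SE, limma adjusted p = 0.000905), and Ddx39b, which couples splicing to export and is known as UAP56, rose by 1.30 ± 0.34 (SE, limma adjusted p = 0.00808), with both kept probe sets higher. Ddx39b lost its call with the hybridization controls as a covariate, at 0.88 ± 0.35 (adjusted p = 0.0772).

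Dhx15 was the splicing helicase that fell. It is the counterpart of yeast Prp43, which takes apart the spent spliceosome, and had signals of 236, 1530.9, 1097.1 and 575.2 on one-cell arrays 1 to 4, against 1593.4, 1498.6, 1666.6 and 2447.6 on MII arrays 1 to 4. The groups overlapped, since one-cell array 2 lay above MII array 2, and array 1 was by far the lowest. The change of -1.34 ± 0.45 (SE, limma adjusted p = 0.0299) was matched by the second probe set (-0.98 ± 0.35), but without one-cell array 1 it was -0.83 ± 0.32 (adjusted p = 0.0585) and with the controls as a covariate -0.45 ± 0.40 (adjusted p = 0.461), and the call was lost in both. It was also lost without one-cell array 4 (-1.25, adjusted p = 0.0803) or without MII array 1 (-1.39, 0.0528), 3 (-1.36, 0.0557) or 4 (-1.18, 0.0877), after centring (-1.65 ± 0.66 (adjusted p = 0.0841)), after quantile normalization (-1.26 ± 0.53 (adjusted p = 0.0942)) and with no variance trend (adjusted p = 0.057). Ddx39a, the close relative of Ddx39b, averaged 3679 ± 738 in one-cell embryos and 6148 ± 1527 in MII oocytes (SD, n = 4), with groups that did not overlap, and its change of -0.73 ± 0.33 did not pass (adjusted p = 0.106). Of its 5 kept probe sets all were below 0 and 1 passed, and their mean passed at -0.80 ± 0.29 (adjusted p = 0.0466). Near-identical relatives such as Ddx39a and Ddx39b may share part of their signal in probe sets marked as unspecific by an x or s in their name. Ddx23, Ddx41, Ddx46, Dhx16 and Dhx35 lay between -0.40 and 0.65 and did not pass.

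**Figure D3:**
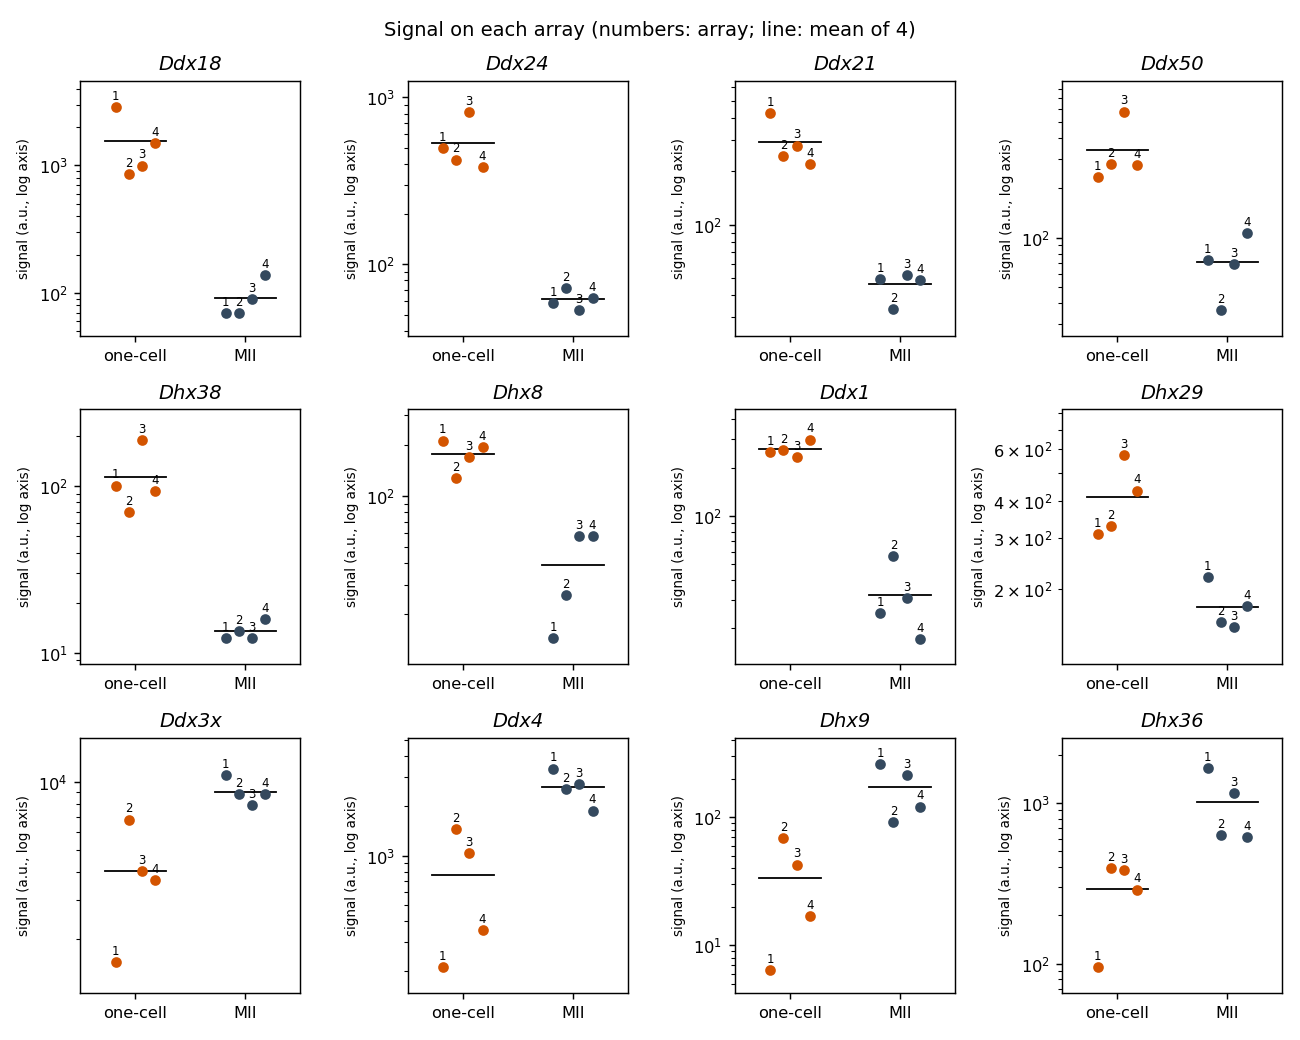
Signal (arbitrary units, log axis) on each one-cell array (left, orange) and each MII array (right, dark), with the array number beside each point and a line at the mean of 4. The first 8 genes, from Ddx18 to Dhx29, were higher on every one-cell array than on any MII array. Ddx3x, Ddx4, Dhx9 and Dhx36 were lower on every one-cell array, and one-cell array 1 was the lowest point in each of these 4.

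Helicases of export and translation moved in both directions. Of 6 genes, all tested, 3 were higher and 2 lower, with a median of 1.03, where 20.1% of all genes were higher and 14.7% lower. Ddx1, the helicase of the tRNA ligase complex, gave 250.3, 257.6, 233.8 and 299.9 on one-cell arrays 1 to 4, against 24.8, 56.4, 30.9 and 17.1 on MII arrays 1 to 4. The embryo values were close to each other, and the change was 2.75 ± 0.33 (SE, limma adjusted p = 1.26e-05), with 1.97 ± 0.31 in its second probe set. The brighter probe set of Ddx1 is marked as unspecific by an x in its name, and the second is not. Dhx29, which helps the small ribosomal subunit scan structured leaders of mRNAs, had signals of 307.6, 328.5, 574.6 and 433.6 on one-cell arrays 1 to 4, against 220.4, 154.1, 148.3 and 175.5 on MII arrays 1 to 4. The groups were apart, the change was 1.16 ± 0.29 (SE, limma adjusted p = 0.00525), and the call was lost after quantile normalization at 0.80 ± 0.29 (adjusted p = 0.0534) and after centring at 0.85 ± 0.42 (adjusted p = 0.158). Its second probe set gave 1.60 ± 0.60 and did not pass (adjusted p = 0.0502). Ddx25, a gonadotropin-regulated helicase known from testis, rose by 1.37 ± 0.37 (SE, limma adjusted p = 0.00967), with one-cell array 1 at 233.8 and the other embryo arrays between 99.7 and 105.1. Without that array the change was 1.09 ± 0.31 (adjusted p = 0.0132), and with the controls as a covariate it was 0.88 ± 0.36 (adjusted p = 0.0941) and not called.

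Ddx3x and Ddx19b fell. Ddx3x, which promotes translation of mRNAs with structured leaders, had signals of 1593.5, 6805.1, 4030.9 and 3669.7 on one-cell arrays 1 to 4, against 10676.5, 8844.2, 7914.9 and 8792.1 on MII arrays 1 to 4. Every oocyte value exceeded every embryo value, and the change was -1.34 ± 0.41 (SE, limma adjusted p = 0.0192). All 3 of its probe sets passed, at -1.59 ± 0.35 and -1.54 ± 0.34 for the other pair. One-cell array 1 was the lowest, and without it the change was -0.95 ± 0.27 (adjusted p = 0.0129). The call did not hold with no filter (adjusted p = 0.0519), after centring, at -1.65 ± 0.58 (adjusted p = 0.0552), with the controls as a covariate, at -0.76 ± 0.40 (adjusted p = 0.186), without MII array 1, at -1.25 ± 0.46 (adjusted p = 0.0586), or without both one-cell arrays 1 and 4, at -0.78 ± 0.29 (adjusted p = 0.0632). Ddx19b, the counterpart of yeast Dbp5 that releases exported mRNA at the nuclear pore, had signals of 160.9, 111.9, 91.9 and 150.0 on one-cell arrays 1 to 4, against 787.7, 303.3, 795.5 and 429.6 on MII arrays 1 to 4. Embryo arrays lay together here, array 1 included, and the change was -2.01 ± 0.34 (SE, limma adjusted p = 0.000272). Its other kept probe set lay at -0.03 ± 0.34 and did not pass (adjusted p = 0.963), and the mean of both was -1.02 ± 0.28 (adjusted p = 0.0119). Dhx34, a factor of nonsense-mediated decay, stood at 0.89 ± 0.34 and did not pass (adjusted p = 0.0568). It passed without one-cell array 1 (0.98 ± 0.33, adjusted p = 0.0308) and without MII array 2 (1.15 ± 0.34, adjusted p = 0.0188).

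Of the 5 helicases of transcription and RNP assembly, all tested, 4 fell and 0 rose, with a median of -1.33, where 14.7% of all genes were lower and 20.1% higher. With the hybridization controls as a covariate 1 of the 5 was lower, which was Dhx9, and 1 of the 4 falls, that of Ddx5, was not shared by the gene's other probe sets. Dhx9, also called RNA helicase A, gave 6.4, 68.7, 42.7 and 16.8 on one-cell arrays 1 to 4, against 258.6, 91.1, 212.9 and 120.8 on MII arrays 1 to 4. Its embryo values were scattered and all below the oocyte values, for a change of -2.19 ± 0.48 (SE, limma adjusted p = 0.00212) and one of -1.80 ± 0.40 (adjusted p = 0.00262) without array 1. On one-cell arrays 1 and 4 Dhx9 lay under the array median (71.8 and 37.9). This probe set is marked as unspecific by an s in its name, and the other probe sets of Dhx9 were too dim to be kept. Dhx36, which unwinds guanine quadruplexes, had signals of 95, 395.1, 384.6 and 289.4 on one-cell arrays 1 to 4, against 1652.6, 634.4, 1154.6 and 616.8 on MII arrays 1 to 4. The change was -1.82 ± 0.43 (SE, limma adjusted p = 0.00344), a second probe set gave -1.81 ± 0.35, the remaining one did not pass at -0.63 ± 0.47, and without one-cell array 1 the change was -1.37 ± 0.34 (adjusted p = 0.00492).

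Ddx17 and Ddx5 are close relatives that act as transcription coregulators, in splicing and in the processing of primary microRNAs. Ddx17 had signals of 373.6, 1294, 782.6 and 753.2 on one-cell arrays 1 to 4, against 1814.5, 1901.4, 1902.2 and 1817.9 on MII arrays 1 to 4. The oocyte values were close to each other and above every embryo value, with a change of -1.33 ± 0.34 (SE, limma adjusted p = 0.0058) and -1.08 ± 0.30 in the second probe set. Ddx5 gave 917.1, 1671.2, 2039 and 1368.8 on one-cell arrays 1 to 4, against 3780.8, 2619.9, 3243.8 and 2462.4 on MII arrays 1 to 4 in its brightest probe set, which fell by 1.05 ± 0.32 on the log2 scale (adjusted p = 0.0183). The other 5 kept probe sets lay between -0.02 and 0.71 and did not pass. Averaged over all 6, the change was 0.21 ± 0.21 (adjusted p = 0.514), so the direction of Ddx5 differed between its probe sets. The call of the brightest one was lost without MII array 1 (-0.93, adjusted p = 0.0618), MII array 3 (-1.01, 0.0557) or one-cell array 4 (-1.02, 0.0510). It was also lost after quantile normalization, at -0.64 ± 0.26 (adjusted p = 0.0827), with or without one-cell array 1. The same held after centring, at -1.36 ± 0.50 (adjusted p = 0.065), and without both one-cell arrays 1 and 4. With the controls as a covariate the change was -0.56 ± 0.29 (adjusted p = 0.18) and not called. Ddx20, a part of the SMN complex that loads Sm proteins onto spliceosomal RNAs, was the member that did not fall, at 0.95 ± 0.37 (adjusted p = 0.058), and without one-cell array 1 it was 1.07 ± 0.33 (adjusted p = 0.0195).

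The germ-line helicase Ddx4 fell. It had signals of 211.6, 1443.7, 1037 and 352.8 on one-cell arrays 1 to 4, against 3378.7, 2541.2, 2706.9 and 1877.9 on MII arrays 1 to 4, its single probe set. No embryo array reached the lowest oocyte array, but the embryo values spread over a wide range, with arrays 1 and 4 far below arrays 2 and 3. The change was -2.13 ± 0.48 (SE, limma adjusted p = 0.00251), without one-cell array 1 -1.65 ± 0.39 (adjusted p = 0.00388), and with the controls as a covariate -1.14 ± 0.42 (adjusted p = 0.0586). Of the other 2 genes in this list, Ddx43 was not tested and Ddx25 rose, as given above.

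Among the cytoplasmic sensors of viral RNA, 2 of 3 were higher and 0 lower, where 20.1% of all genes were higher and 14.7% lower. Ddx58, which encodes RIG-I, gave 285.6, 340.3, 553.4 and 554.7 on one-cell arrays 1 to 4, against 173.7, 170.9, 178.6 and 175.1 on MII arrays 1 to 4. The 4 oocyte values were nearly equal, the embryo values were all above them, and the change was 1.21 ± 0.29 (SE, limma adjusted p = 0.00413). It was 0.84 ± 0.30 (adjusted p = 0.0511) after quantile normalization and 0.89 ± 0.42 (adjusted p = 0.142) after centring, where it was no longer called. Ddx60 rose by 1.81 ± 0.41 (adjusted p = 0.00286) in the brighter of 2 kept probe sets, which lay at or under the median of every MII array. The other lay at -0.32 ± 0.61, and their mean did not pass, at 0.75 ± 0.45 (adjusted p = 0.251). Dhx58, which encodes LGP2, stood at -0.26 ± 0.35 and did not pass. No member of the mitochondrial list passed. Ddx28 and Dhx30, which act in mitochondrial ribosome assembly, had no stable sign, with -0.38 ± 0.40 and -0.13 ± 0.37 over all arrays, 0.03 ± 0.28 (adjusted p = 0.952) and 0.29 ± 0.25 (adjusted p = 0.42) without one-cell array 1, and 0.39 ± 0.32 (adjusted p = 0.418) and 0.42 ± 0.38 (adjusted p = 0.474) with the controls as a covariate. Dhx32, whose role is less settled, stood at -0.28 ± 0.29.

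Ddx11, the DNA helicase of the list and a factor of sister chromatid cohesion, showed one of the largest rises. It had signals of 899.9, 902.1, 1384.5 and 908 on one-cell arrays 1 to 4, against 101.7, 110.9, 130.3 and 105.8 on MII arrays 1 to 4. Apart from embryo array 3 the values within each group were close to each other, and the change was 3.06 ± 0.27 (SE, limma adjusted p = 6.67e-07). Among the genes with no list, Dhx40 rose, with signals of 325.5, 500.2, 497.9 and 415.9 on one-cell arrays 1 to 4, against 191.4, 165.9, 174.7 and 133.4 on MII arrays 1 to 4 and a change of 1.33 ± 0.27 (SE, limma adjusted p = 0.00133). It was not called after centring, at 1.01 ± 0.40 (adjusted p = 0.0816). Dhx57 and Ddx59 stood at 0.48 ± 0.33 and -0.68 ± 0.35, and Ddx59 at -0.29 ± 0.24 (adjusted p = 0.401) without one-cell array 1. Neither passed, although Dhx57 did without one-cell array 1, at 0.83 ± 0.24 (adjusted p = 0.0137).

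Probe sets of the same gene gave a further check. Of the 19 genes with at least 2 kept probe sets, 7 had all of them called one way, 7 had some called and the rest not passed, and 5 had none called. No gene had probe sets called in opposite directions, and in 12 of the 19 all kept probe sets had the same sign. Ddx46, the counterpart of yeast Prp5, was the most mixed beside Ddx5. Its 5 probe sets ran from -1.35 ± 0.52, which did not pass, to 1.21 ± 0.39, which did, and its brightest gave 0.27 ± 0.41. The genes whose kept probe sets were all called were Ddx1, Ddx18, Ddx39b and Ddx52 among those that rose and Ddx17, Ddx3x and Dhx15 among those that fell.

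**Figure D4:**
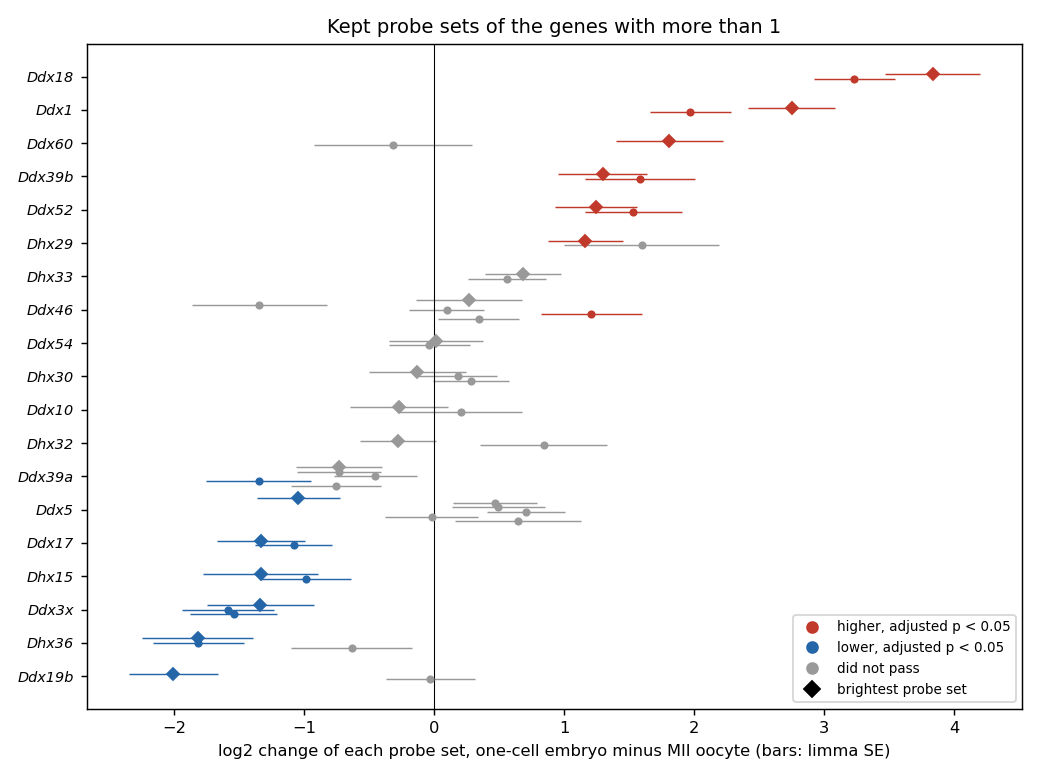
Log2 change (one-cell embryo minus MII oocyte) with the limma SE of each kept probe set of the 19 genes that have more than 1, ordered by the brightest probe set (diamonds). Red probe sets were higher, blue ones lower, and grey ones did not pass. In Ddx5 the diamond lies at -1.05 and the other 5 probe sets lie between -0.02 and 0.71.

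Related genes without a Ddx or Dhx symbol were counted for context. Of 19 other RNA helicases on the array 16 were tested, 0 were higher and 2 lower by limma at an adjusted p under 0.05, with a median of -0.23, where 20.1% of all genes were higher and 14.7% lower. The 2 were Eif4a2, a DEAD box helicase of translation initiation named otherwise, at -1.58 ± 0.40 (SE, limma adjusted p = 0.0064), and Dicer1, the nuclease with a helicase domain that makes microRNAs, at -1.08 ± 0.32 (SE, limma adjusted p = 0.0161). Without MII array 2 Dicer1 was not called, at -0.81 ± 0.31 (adjusted p = 0.0594). Ascc3 came next and did not pass (-0.79 ± 0.31, adjusted p = 0.0637). Without one-cell array 1, 5 passed, where 37.3% of all genes did, among them Mtrex (1.31 ± 0.30) and Snrnp200 (1.17 ± 0.27), the helicases of the nuclear exosome and of spliceosome activation, which were higher. Of 36 genes for helicase partners 33 were tested, 15 were higher and 3 lower, with a median of 0.74, beside 20.1% and 14.7% of all genes. Eif4b and Eif4h are cofactors of the eIF4A helicases. Eif4b had signals of 2453.8, 1752.5, 877.3 and 1343.9 on one-cell arrays 1 to 4, against 99.8, 185.8, 50.7 and 181.1 on MII arrays 1 to 4, and changed by 3.59 ± 0.39 (SE, limma adjusted p = 4.88e-06), and Eif4h changed by 2.93 ± 0.28 (SE, limma adjusted p = 1.2e-06). All embryo values of Eif4b lay above all its oocyte values. The scaffolds Eif4g2 (-0.96 ± 0.40, adjusted p = 0.0756) and Eif4g3 (-0.68 ± 0.28, adjusted p = 0.0796) lay below 0 and did not pass, although Eif4g2 did without one-cell array 2 (-1.20 ± 0.40, adjusted p = 0.0311) and Eif4g3 without one-cell array 3 (-0.85 ± 0.29, adjusted p = 0.0365). Of the tRNA ligase complex around Ddx1, Fam98a changed by 3.36 ± 0.38 (SE, limma adjusted p = 6.72e-06), Fam98b by 1.98 ± 0.38 and the ligase Rtcb by 1.66 ± 0.28, while Rtraf stood at 0.74 ± 0.45 and did not pass (adjusted p = 0.237, and 0.00414 without one-cell array 1, at 1.25 ± 0.30). The activator of Ddx19b, Gle1, fell as the brightest probe set of Ddx19b did, at -2.30 ± 0.40 (SE, limma adjusted p = 0.000325), while Nup214, which anchors Ddx19b at the pore, rose by 2.48 ± 0.41. Apart from Eif4b, Eif4h and Fam98a, these partners were chosen for this after their values were seen.

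The 5′ ends of the members were read for terminal pyrimidine tracts, since ribosomes load at this end and mRNAs of ribosomal proteins carry such a tract there. The search asked for a C as the first base of the annotated transcript, followed by at least 4 bases that are C or T, on the transcribed strand. RefSeq's promoter table (GRCm38.p6) held 56 annotated starts for 45 of the 50 genes, and 3 starts, of Dhx16, Ddx42 and Ddx50, met it (5.36%), beside 2.51% of all 32851 starts in the table. Starts named for ribosomal protein genes met it in 18.6% of 70 cases, so most starts of that kind did not meet it. The first 30 transcribed bases of these 3 are shown with the tract in capitals, followed by the main rise and 2 of the falls, which have none.
Dhx16 (chr17:35879778-35879807, plus strand): CTCTTTCCgggtttcgcggtctgtggaatt
Ddx42 (chr11:106230666-106230695, plus strand): CCTCTTTCCagtaattgtttgtgactctta
Ddx50 (chr10:62649724-62649753, minus strand): CCTTTgaattttactactgtaggcttctag
Ddx18 (chr1:121567951-121567980, minus strand): gaagcatttccgccccgcgggtccgcaggc
Ddx3x (chrX:13281022-13281051, plus strand): aaagccgcagttctcccgtgagagggcctt
Ddx4 (chr13:112652281-112652310, minus strand): ggccgcgaggagcccggggagcctggagcg
Ddx42 and Ddx50 each have a second annotated start without the tract. By call, 2 of the 16 genes that rose and have an entry held a tract, 0 of the 8 that fell, and 1 of the 21 others, and no match says only that these letters are not at the annotated start.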

How the data were processed

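Polysomal mRNA from 4 batches of α-amanitin-treated one-cell embryos and 4 of MII oocytes was amplified in 2 rounds and labelled with biotin, per the labels. The deposited values are linear intensities in arbitrary units, with 1 for each probe set on each array. The software that summarised the probes and the genome build were not given in the sources used here. The mean intensity after trimming 2% of probe sets at either end was 150.0 on every array, which is how a common scaling was recognised, and the intensities were used as deposited. No detection calls were used, and the number of arrays limits the precision. Amplification in 2 rounds favours 3′ ends.

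The 64 control probe sets were left out of the tests. An offset of 10 was added before log2, which understates the change of dim genes, and probe sets above the array median on at least 4 of 8 arrays were kept (23336). Embryo minus oocyte differences were fitted in limma 3.58.1 under R 4.3.3 (variance trend, two-sided, Benjamini-Hochberg over all probe sets kept). The brightest kept probe set stood for its gene. All 50 genes are in the RefSeq gene table. The fit was also run on simulated arrays with planted changes and independent noise, of the same spread on every array for a given probe set. Such data hold no odd array and no shift between the groups, so they cannot show how these affect the calls. The members and lists were chosen with earlier results of these data known, so list counts and medians are descriptions and no list was tested. Genes were named by these rules: among called genes with groups apart and a brighter-group mean above 109 (the mean of the arrays' 75th percentiles), the 7 (Ddx) or 4 (Dhx) of largest change each way, the 3 smallest p of each role list, and a panel of 13 genes. This named 28 member genes, 23 of them past the test. Other genes given with values were chosen after these were seen. Alternatives covered the normalization (quantile, median centring), the offset (1 and 32), the filter, the variance model, array weights, the sample number as a block, leaving out each array, one-cell arrays 1 and 4 left out, the hybridization controls as a covariate, the mean over probe sets and a threshold of 0.01.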

Additional observations from a re-analysis of the deposited data

Results flagged for a closer look

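In 7 of 94 groups of 4 arrays, a group being 1 tested member gene in one-cell embryos or in MII oocytes, a single array stood apart from the other 3 by more than Dixon's 95% limit on the log2 scale. Chance flags about 5% of such groups. Ddx42 and Ddx25 stood apart on one-cell array 1, whose hybridization controls were the brightest. Ddx42 had a signal of 223.2 there against 123.6 to 133.0 on the other embryo arrays, and Ddx25 had 233.8 against 99.7 to 105.1. Ddx11 had 1384.5 on one-cell array 3 against 899.9 to 908.0 on the others. In MII oocytes, Ddx21 had 33.2 on array 2 against 48.6 to 51.9, Ddx31 had 23.0 on array 2 against 45.1 to 49.4, Ddx42 had 46.3 on array 4 against 37.4 to 38.3, and Ddx28 had 160.7 on array 1 against 93.8 to 98.4. The groups of Ddx11, Ddx21, Ddx25 and Ddx42 stayed apart with these arrays included, and all 4 genes were called as higher.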

How the results depend on the processing

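Of the 23 named genes past the test, 9 kept their call in each of the 21 alternatives, Ddx1, Ddx11, Ddx18, Ddx21, Ddx24, Ddx42, Ddx50 and Dhx8 among the rises and Ddx19b among the falls. Dhx38 and Dhx9 kept theirs in 20 and were not tested with the filter at the 75th percentile. For Ddx19b this covers its brightest probe set and the mean of probe sets. Its other kept probe set lay at -0.03 ± 0.34 and did not pass (adjusted p = 0.963). Ddx5 reversed with its probe sets averaged (0.21 ± 0.21, adjusted p = 0.514). With the hybridization controls as a covariate, 8 of the 23 lost their call, 1 Ddx gene stayed lower instead of 5, 1 Dhx gene instead of 3, and 1 gene of transcription and RNP assembly instead of 4, the relative medians were 0.73 (Ddx) and 0.53 (Dhx), and 4 other RNA helicases passed. Median centring left 3 Ddx genes lower and 2 Dhx genes higher. After quantile normalization the relative medians were 0.47 and 0.21, and with one-cell array 1 also left out 0.49 and 0.42, with 5 other RNA helicases past the test. Those settings put the share of higher ones among the called probe sets at 48.7% and 49.4%, where it was 60.2%, while centring gave 50.8%. Without one-cell arrays 1 and 4, 3 Ddx genes were lower, the relative medians were 0.66 and 0.45, and 4 other helicases passed. Array quality weights gave a relative Dhx median of 0.50 and 5 other helicases. The filter at the 75th percentile gave 0.038 (Ddx) and 0.20 (Dhx) over fewer genes, the mean of probe sets 0.50 and 0.085, no filter 0.46 for Ddx, and offsets of 1 and 32 gave 0.73 and 0.40 for Ddx. At an adjusted p under 0.01, 3 Ddx genes were lower and 1 other helicase passed. The cause of these shifts was not tested.

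Leaving out 1 array at a time, the relative median ran from 0.45 to 0.65 for Ddx genes and from -0.55 to 0.53 for Dhx genes, and only the setting without one-cell array 1 put the Dhx median above 0. Between 3 and 5 Ddx genes were lower, with 3 without MII array 1, and between 1 and 5 other helicases passed, with 1 without MII array 2 and 5 without one-cell array 1. The number of ribosome assembly genes that were higher ran from 5 to 7 over the alternatives, and 0 were lower in each. The labels do not say that the sample numbers pair the arrays. Deviations of same-numbered arrays from their group means correlated at -0.16, -0.11, 0.14 and 0.04, and other pairs ran from -0.27 to 0.19. Because deviations within a group sum to 0, these values cannot decide whether the arrays are paired. With the number as a block, 7209 probe sets passed, 13 Ddx genes were higher and 5 lower, 4 Dhx genes were higher and 3 lower, and no named gene changed its call. Oocyte signals under the median of every MII array limit the folds of Dhx38, Ddx49 and Ddx60.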
